A study of Mus musculus with 8 samples.

Results

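Ccne1 and Cdk1 were the only cell cycle genes among the 11 targets measured by quantitative RT-PCR in lineage-negative mouse bone marrow. They were chosen by their names in the raw table, with no measured value used, and all 54 of their wells were determined. Each target was run in 3 wells per preparation, in 9 preparations. Of these, 3 were labelled Gfi1-/-;Id2+/- (no intact Gfi1 and 1 intact copy of Id2), 3 Gfi1-/- and 3 wild type (Gfi1+/+). All 9 were the marrow fraction left after cells positive for CD11b, Gr1, B220, CD8, CD4, Ter119 or IL-7R had been depleted, with no treatment stated. The strain is given as C57/Bl6 for the arrayed mice of the same study. The labels state neither the age of the mice nor whether a preparation pooled animals. Setting the mutant genotypes against each other addresses Id2 dosage on a background labelled Gfi1-null. The study also arrayed whole bone marrow of the mutant genotypes, but no table used here pairs those probe sets with genes, so neither gene was read from the arrays.

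Ccne1 encodes cyclin E1, which binds the kinase Cdk2 and drives cells from G1 into DNA synthesis; its transcription is switched on by E2F factors as cells leave G1. Cdk1 encodes the kinase that, with A- and B-type cyclins, carries cells through G2 into mitosis, and its transcript is most abundant late in the cycle. Gfi1, a transcriptional repressor, is known to restrain the proliferation of mouse blood stem cells. Id2 is an inhibitor that pairs with E-protein transcription factors, which then cannot bind DNA.

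The promoters of both genes are shown because the results below compare an early and a late gene of the cycle, and their start regions differ in sequence. In the RefSeq annotation of GRCm38.p6, Ccne1 lies on chromosome 7, 38097984 to 38107490, and Cdk1 on chromosome 10, 69335146 to 69352912, both on the minus strand. The windows run from 250 bases before to 50 after the start, chr7:38107441-38107740 and chr10:69352863-69353162, and are printed 5′ to 3′ along the gene. Capitals mark matches, on either strand, to any of these motifs: the E2F letters TTTCCCGC, TTTGGCGC, TTTCGCGC and TTTGCCGC, the CHR element of late cell cycle genes (TTTGAA), the CCAAT box (CCAAT) and the AATC core of Gfi1 sites.
Ccne1: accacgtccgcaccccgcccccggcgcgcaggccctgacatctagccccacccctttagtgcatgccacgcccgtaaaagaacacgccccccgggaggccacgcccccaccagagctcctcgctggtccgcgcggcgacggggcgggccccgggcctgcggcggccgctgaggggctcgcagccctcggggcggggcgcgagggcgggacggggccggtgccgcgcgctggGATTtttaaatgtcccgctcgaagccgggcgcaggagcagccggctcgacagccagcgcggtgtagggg
Cdk1: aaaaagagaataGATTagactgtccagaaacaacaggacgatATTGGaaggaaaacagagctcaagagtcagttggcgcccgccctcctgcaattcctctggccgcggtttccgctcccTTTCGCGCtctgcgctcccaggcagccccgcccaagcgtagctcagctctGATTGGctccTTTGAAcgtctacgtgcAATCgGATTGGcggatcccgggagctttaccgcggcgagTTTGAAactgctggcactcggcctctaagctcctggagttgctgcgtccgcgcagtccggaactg
The Ccne1 window held 1 match to the AATC core and 0 to the other motifs. It was 76.0% G and C, against 57.7% in the Cdk1 window and a median of 52.7% over all 32851 promoter windows of this length. The Cdk1 window held 1 E2F match, 2 CHR matches, of which 1 began 15 bases before the start, 3 CCAAT matches and 4 AATC matches, of which 2 overlap a CCAAT match. Of all windows, 2.26% held an E2F match, 17.9% a CHR match, 37.4% a CCAAT match and 73.1% an AATC match. These are matches to exact letters in a short window, so a site with other letters is not counted. Nothing was measured on the promoters here.

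Levels were formed by taking a target's mean Ct from the Gapdh mean of the same preparation. Ct is the cycle at which the signal crosses a threshold, so a lower Ct is more transcript and 1 unit of level is 1 cycle, or 1 on the log2 scale if each cycle doubles the product. Levels of different genes depend on their assays and were not set against each other. The pooled SD between replicate wells was 0.131 cycles for Ccne1, 0.164 for Cdk1 and 0.118 for Gapdh. The widest was 0.379, for Cdk1 in Gfi1-/-;Id2+/- preparation 1. Gapdh had 1 undetermined well of 324 in all, in wild-type preparation 1, whose mean rests on the other 2. The number of preparations limits the precision of every comparison.

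Facts of the whole table bear on these levels. Gfi1 itself does not check the labels: its level was -7.47, -7.13 and -6.70 in Gfi1-/-;Id2+/- cells, -7.07, -7.10 and -6.90 in Gfi1-/- cells and -7.35, -7.47 and -7.67 in wild-type cells. No source used here places its assay inside or outside the deleted part. Genotypes are therefore given as labelled throughout. Gapdh averaged 15.82 ± 1.03 cycles in Gfi1-/-;Id2+/- cells, 15.87 ± 0.81 in Gfi1-/- cells and 17.42 ± 1.35 in wild-type cells (SD, n = 3 each), although equal amounts of RNA were used per the methods sheet. Wells were also listed by genotype, Gfi1-/-;Id2+/- in rows E to I, Gfi1-/- in J to N and wild type in A to E, so place on the plate and genotype cannot be told apart. In these mixed cells, fewer cells of a type and less RNA per cell cannot be told apart either.

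**Figure D1:**
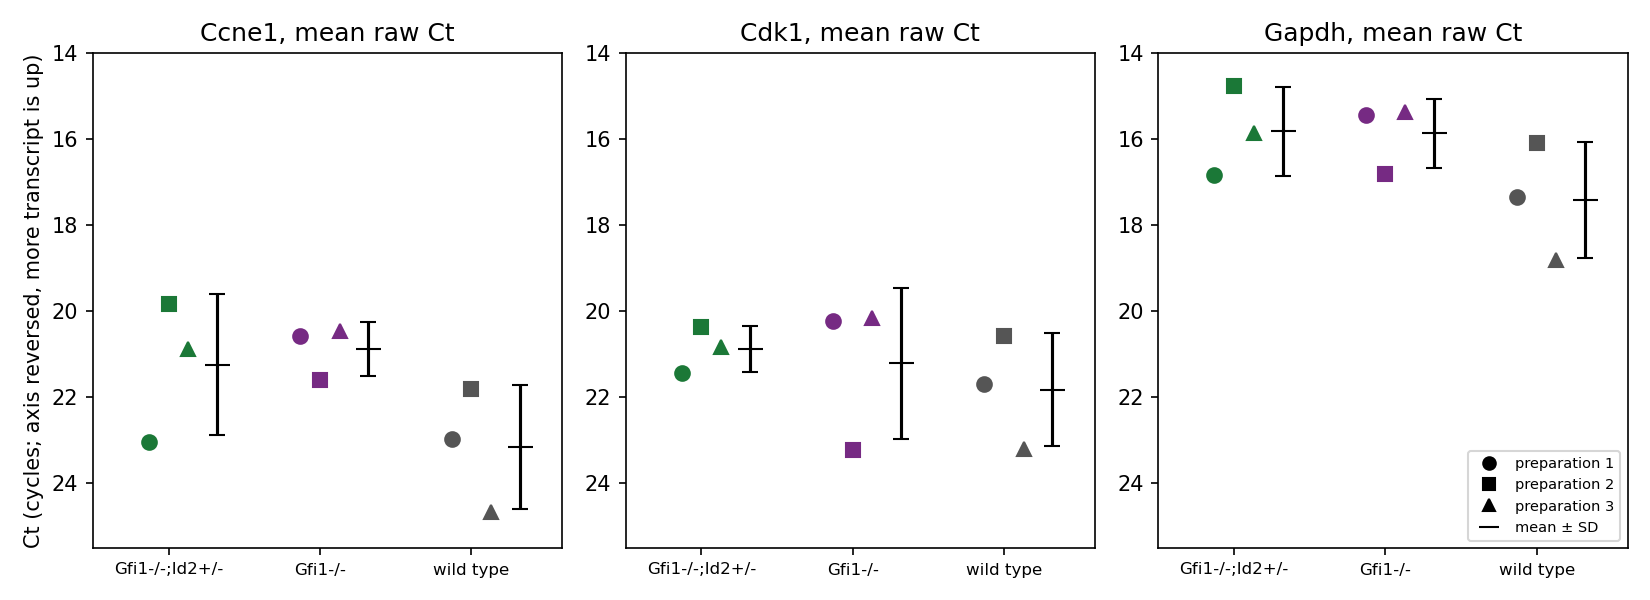
Mean raw Ct (vertical axis in cycles, reversed so that more transcript is up) of Ccne1, Cdk1 and Gapdh in each preparation of the 3 genotypes, with the mean ± SD of 3 preparations as bars. Each of Gapdh, Ccne1 and Cdk1 had a higher mean Ct in wild-type preparations than in either mutant genotype. Only Ccne1 in Gfi1-/- preparations did not overlap wild type.

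Before any reference was applied, Ccne1 needed 23.03, 19.83 and 20.87 cycles in Gfi1-/-;Id2+/- preparations 1, 2 and 3, and 20.57, 21.60 and 20.47 in Gfi1-/- preparations. It needed 22.97, 21.80 and 24.67 cycles in wild-type preparations. The Gfi1-/- preparations thus had lower Ct than all wild-type ones, which held for 1 of the 11 targets (9.09%), while Gfi1-/-;Id2+/- preparation 1 lay among the wild type. Cdk1 needed 21.43, 20.37 and 20.83 cycles in Gfi1-/-;Id2+/- preparations, 20.23, 23.23 and 20.17 in Gfi1-/- preparations, and 21.70, 20.57 and 23.20 in wild-type preparations. Gfi1-/- preparation 2 and wild-type preparation 3 had nearly the same, highest Cdk1 Ct, and the genotypes overlapped.

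Relative to Gapdh, Ccne1 was higher in the Gfi1-/- preparations than in every wild-type preparation, and 2 of 3 Gfi1-/-;Id2+/- preparations were too. Its level was -6.20, -5.07 and -5.00 in Gfi1-/-;Id2+/- preparations 1, 2 and 3, and -5.13, -4.80 and -5.10 in Gfi1-/- preparations. In wild-type preparations it was -5.62, -5.70 and -5.87. Gfi1-/-;Id2+/- preparation 1 was the lowest of all 9, and the other 2 of its genotype lay within the Gfi1-/- range.

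The Ccne1 mean was -5.01 ± 0.18 in Gfi1-/- cells and -5.73 ± 0.13 in wild-type cells (SD, n = 3 each), a difference of 0.72 (SE 0.13), or 1.64-fold. The genotypes did not overlap, and an exact permutation test, two-sided, returned p = 0.1, which is as small as 3 against 3 preparations allow (adjusted p = 0.275 over 11 genes). Of the 11 targets, 4 (36.4%) did not overlap between these genotypes and 3 (27.3%) lay wholly higher in Gfi1-/- than in wild-type preparations, the other two being Id2 and Gfi1. Taken at face value, the authors' deposited folds run the other way. Ccne1 is there at 1.1, 1.6 and 2.0 for Gfi1-/-;Id2+/-, 3.0, 1.5 and 1.8 for Gfi1-/- and 8.1, 6.0 and 7.3 for wild-type preparations. Of the 9 Ccne1 folds there, 5 were within 0.1, on the log2 scale, of 2 to the power of the deposited Ct difference itself. That quantity grows with Ct, so a higher value is less transcript, whereas the methods sheet gives the power of minus that difference. The deposited difference is to the raw Hbb-b1 wells. It was negative in preparation 2 of Gfi1-/-;Id2+/- (-0.7) and of Gfi1-/- (-0.5), where the folds were still written above 1.

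In Gfi1-/-;Id2+/- cells Ccne1 averaged -5.42 ± 0.67, against -5.73 ± 0.13 in wild-type cells (SD, n = 3 each), a difference of 0.31 (SE 0.40). The genotypes overlapped, with an exact permutation p of 0.4. Without Gfi1-/-;Id2+/- preparation 1 the difference was 0.69, without preparation 2 it was 0.13 and without preparation 3 it was 0.09. The difference between the mutant genotypes, -0.41 (SE 0.40), was -0.02 without preparation 1. The limma fit across the 11 genes gave a 95% interval of -1.18 to 0.35 for it, which takes in differences of either sign.

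**Figure D2:**
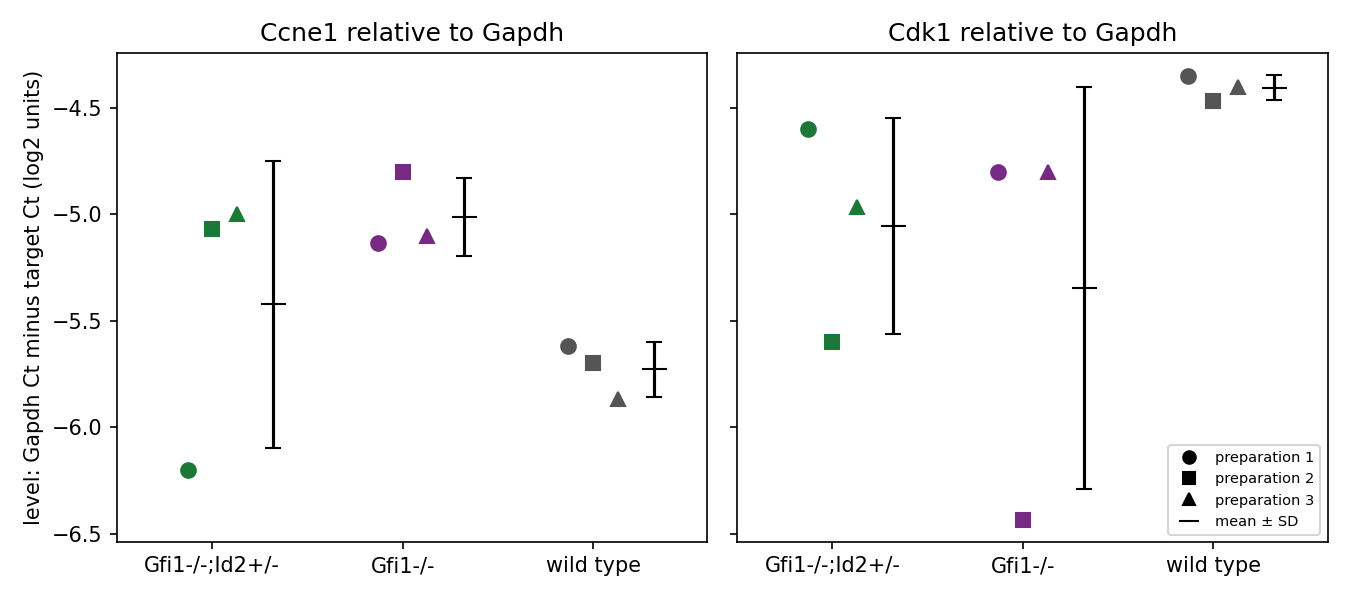
Level of Ccne1 and Cdk1 (vertical axis, Gapdh Ct minus target Ct in log2 units, shared by both panels) in each preparation of the 3 genotypes, with the mean ± SD of 3 preparations as bars. Wild-type preparations are tight for both genes, the 3 Gfi1-/- preparations lie above them for Ccne1, and the mutant preparations lie below them for Cdk1, Gfi1-/- preparation 2 furthest at -6.43.

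Cdk1 lay the opposite way relative to Gapdh: each of the 6 mutant preparations was lower than each of the 3 wild-type ones. Its level was -4.60, -5.60 and -4.97 in Gfi1-/-;Id2+/- preparations 1, 2 and 3, and -4.80, -6.43 and -4.80 in Gfi1-/- preparations. Wild-type preparations were at -4.35, -4.47 and -4.40. Of the 11 targets, Cdk1 alone (9.09%) had all mutant preparations below all wild-type ones, and 0 had all above. The separation was narrow: the closest values were -4.60 in Gfi1-/-;Id2+/- preparation 1 and -4.47 in wild-type preparation 2. The Cdk1 wells of that mutant preparation were the most spread, from 21.0 to 21.7 cycles (SD 0.379).

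The Cdk1 mean was -5.06 ± 0.51 in Gfi1-/-;Id2+/- cells and -4.41 ± 0.06 in wild-type cells (SD, n = 3 each). The difference was -0.65 (SE 0.29), a ratio of 0.637, with an exact permutation p of 0.1 and an adjusted p of 0.367. Of the 11 targets, 2 (18.2%) lay wholly lower there, Cdk1 and the globin gene Hbb-b1. The mean level of 6 erythroid markers, given per preparation further on, was lower in each Gfi1-/-;Id2+/- preparation, at -6.02 ± 0.13 against -5.57 ± 0.24 in wild type (SD, n = 3 each). That mean includes Hbb-b1, which differed by -1.53. Gata1, Klf1, Epor, Tfrc and Gfi1b differed by -0.23, -0.42, -0.06, -0.27 and -0.19, and each overlapped wild type. The part of the marker mean in the Cdk1 difference was not tested. In Gfi1-/- cells Cdk1 averaged -5.34 ± 0.94 (SD, n = 3), which differed from wild type by -0.94 (SE 0.55), a ratio of 0.522, with an exact permutation p of 0.1 and an adjusted p of 0.275. Here Cdk1 was the only target (9.09%) wholly lower. Both comparisons share the wild-type preparations. Their size rested on preparation 2 of each mutant genotype: the difference from wild type was -0.38 without Gfi1-/-;Id2+/- preparation 2 and -0.39 without Gfi1-/- preparation 2. Between the mutant genotypes Cdk1 differed by 0.29 (SE 0.62), with a limma 95% interval of -0.69 to 1.27.

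The Cdk1 direction held relative to Gapdh and to the mean of the 9 other targets, and turned under the other references. Against Hbb-b1, Cdk1 differed from wild type by 0.88 in Gfi1-/-;Id2+/- and 0.36 in Gfi1-/- cells. Without a reference it differed by 0.94 and 0.61, and the genotypes overlapped in each. The panel shifted too: the median difference over the targets was 1.28 and 1.51 against Hbb-b1, and 1.32 and 1.76 without a reference. Cdk1 lay below that median in each. Raw Hbb-b1 Ct averaged 20.44 ± 0.57 in Gfi1-/-;Id2+/-, 20.26 ± 1.66 in Gfi1-/- and 20.51 ± 1.12 cycles in wild-type cells (SD, n = 3 each), whereas the mean Gapdh Ct, given above, was lower in both mutants than in wild type. Against the mean of the 9 other targets the Cdk1 difference was -0.29 (SE 0.33) in Gfi1-/-;Id2+/- cells, which overlapped wild type, and -1.04 (SE 0.23) in Gfi1-/- cells, which did not. Between Gfi1-/-;Id2+/- and Gfi1-/- cells it was then 0.75 (SE 0.38), without overlap (exact permutation p = 0.1). Under this reference 3 of the 11 targets (27.3%) did not overlap between Gfi1-/- and wild-type cells, and likewise between the mutants. Between Gfi1-/-;Id2+/- and wild-type cells 2 (18.2%) did not. Each of the 9 other targets is part of this reference, unlike Ccne1 and Cdk1, so that share is not a like background. The 9 include Gfi1 and Id2, and Id2 differed by -1.57 between the mutants relative to Gapdh. The sign of the Ccne1 difference of each mutant from wild type was positive under all 4 references: 0.31, 0.67, 1.83 and 1.90 in Gfi1-/-;Id2+/- cells, and 0.72, 0.62, 2.01 and 2.27 in Gfi1-/- cells, for Gapdh, the 9 targets, Hbb-b1 and no reference. For Hbb-b1 and no reference that sign was shared by the median of the targets, given above. Against the 9 targets, Gfi1-/- and wild-type preparations overlapped for Ccne1 (exact permutation p = 0.2).

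**Figure D3:**
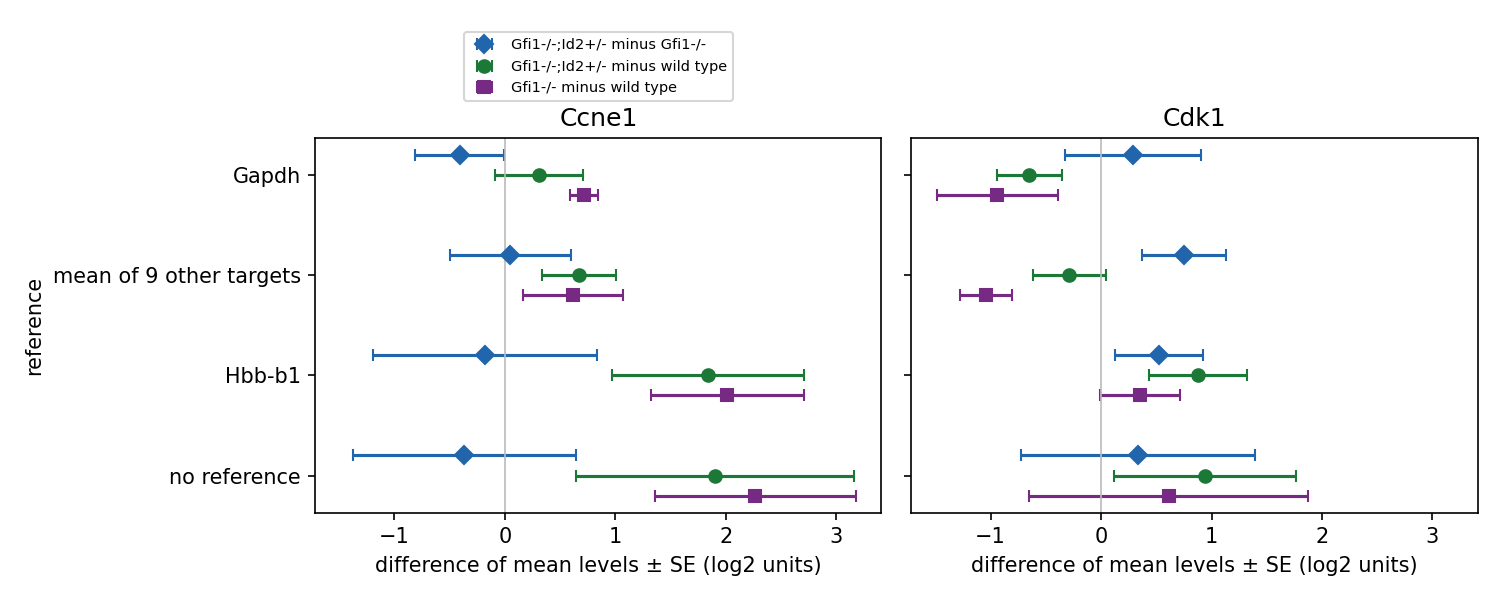
Difference of mean levels between genotypes (horizontal axis, log2 units, bars are the SE from 3 preparations each) for Ccne1 and Cdk1 under 4 choices of reference. For Ccne1 both differences from wild type stay positive, while for Cdk1 they are negative for Gapdh and the mean of the 9 other targets and positive for Hbb-b1 and no reference. For Hbb-b1 and no reference, the median difference over the targets was positive too.

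The Ct difference between the genes, Cdk1 minus Ccne1, needs no reference, because any reference cancels. It was -1.60, 0.53 and -0.03 cycles in Gfi1-/-;Id2+/- preparations 1, 2 and 3, -0.33, 1.63 and -0.30 in Gfi1-/- preparations, and -1.27, -1.23 and -1.47 in wild-type preparations. All 3 Gfi1-/- preparations stood above all wild-type ones, as did Gfi1-/-;Id2+/- preparations 2 and 3, whereas Gfi1-/-;Id2+/- preparation 1 was the lowest of the 9. A higher value means more Ccne1 transcript for each Cdk1 transcript than in another preparation. The mean was -0.37 ± 1.11 in Gfi1-/-;Id2+/-, 0.33 ± 1.13 in Gfi1-/- and -1.32 ± 0.13 in wild-type cells (SD, n = 3 each). Such a shift was not particular to this pair of genes. Hbb-b1 Ct minus Ccne1 Ct averaged -0.80, -0.62 and -2.63 in the same order, and there too all Gfi1-/- preparations stood above all wild-type ones. The share over all gene pairs was not computed.

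Relative to wild type, the Ccne1 over Cdk1 ratio was 1.94-fold in Gfi1-/-;Id2+/- cells (a Ct difference of 0.96, SE 0.64) and 3.15-fold in Gfi1-/- cells (1.66, SE 0.65). Between the mutant genotypes it differed by -0.70 (SE 0.91). These are a description of a score over both genes and carry no test. The sizes rested on single preparations. In Gfi1-/-;Id2+/- cells the ratio was 1.42-fold without preparation 2, 1.73-fold without preparation 3 and 2.97-fold without preparation 1. In Gfi1-/- cells it was 2.01-fold without preparation 2, 3.97-fold without preparation 1 and 3.92-fold without preparation 3.

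**Figure D4:**
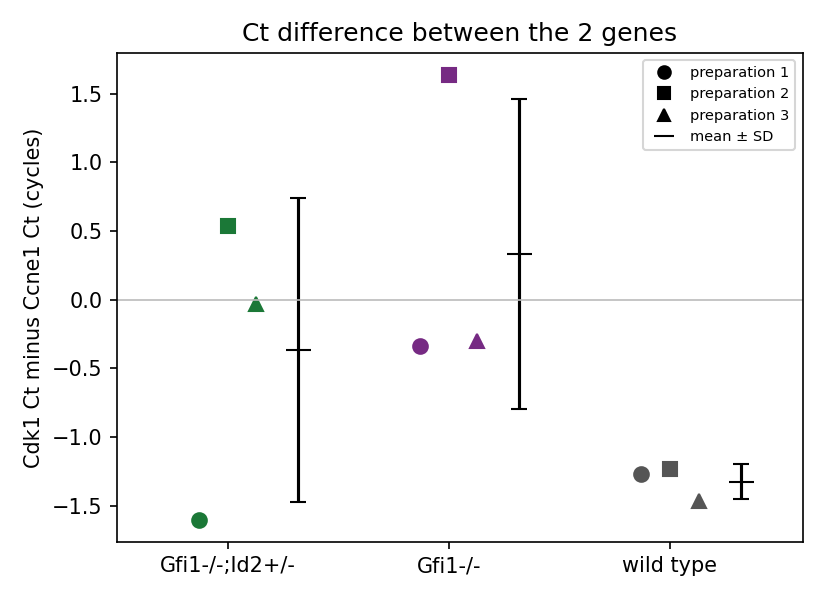
Cdk1 Ct minus Ccne1 Ct (vertical axis, cycles) in each preparation of the 3 genotypes, with the mean ± SD of 3 preparations as bars. Wild-type preparations lie between -1.47 and -1.23, and 5 of the 6 mutant preparations lie above them, up to 1.63 in Gfi1-/- preparation 2.

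Across the 3 genotypes together neither gene passed the test. The exact permutation test over 1680 assignments of the 9 preparations, which can reach p = 0.00357, gave p = 0.196 for Ccne1 and 0.204 for Cdk1 relative to Gapdh, each with an adjusted p of 0.326. Of the 11 targets 0 (0%) passed after adjustment, and 2 (18.2%), Id2 and Gfi1b, had an unadjusted p under 0.05. In limma, likewise across the 11 targets, Ccne1 and Cdk1 both had an adjusted p of 0.176 between Gfi1-/- and wild-type cells. The limma fit called 0 of 11 targets in each comparison with wild type and 1 (9.09%), Id2, between the mutants, where 1 had an unadjusted p under 0.05. In order of mean level, Ccne1 ran Gfi1-/-, Gfi1-/-;Id2+/-, wild type, and only the first and last did not overlap. For Cdk1 the order was wild type, Gfi1-/-;Id2+/-, Gfi1-/-, where wild type was apart from both and the mutants overlapped.

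Among the 11 targets, Ccne1 and Cdk1 stood near opposite ends of the differences from wild type. Counted from the most positive, Ccne1 was number 2 and Cdk1 number 10 in both mutant genotypes. The median difference over the 11 genes was -0.27 in Gfi1-/-;Id2+/- and 0.21 in Gfi1-/- cells. Number 1 was Gfi1 in Gfi1-/-;Id2+/- cells (0.39) and Id2 in Gfi1-/- cells (0.99), and number 11 was Hbb-b1 in both.

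**Figure D5:**
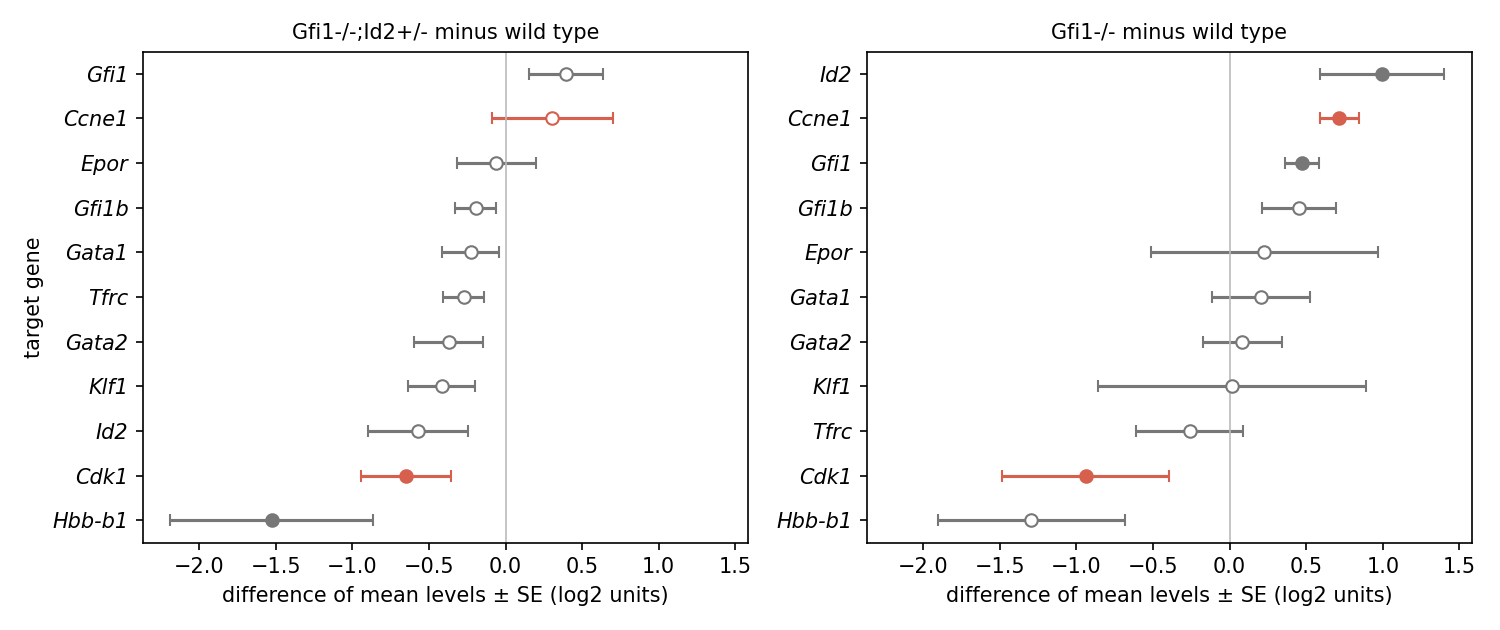
Difference of mean level from wild type (horizontal axis, log2 units, bars are the SE from 3 preparations each) for all 11 targets relative to Gapdh, with Ccne1 and Cdk1 in red; filled points mark genes whose preparations did not overlap wild type. Ccne1 is second from the top and Cdk1 second from the bottom in both mutant genotypes.

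The targets whose pattern was most like each gene were found by the SD, over the 9 preparations, of the Ct difference to it, in which the reference cancels. For Ccne1 these were Gfi1 (SD 0.282 cycles) and its relative Gfi1b, a repressor needed for red cell formation (0.428). Gata2 (0.475) and Gata1 (0.495) were close behind Gfi1b, as was the reference gene Gapdh (0.472). For Cdk1 they were Tfrc, the transferrin receptor that feeds iron to dividing and erythroid cells (0.533), and Hbb-b1, an adult beta-globin gene (0.574). The SD between Cdk1 and Ccne1 was 1.07, so Cdk1 was number 9 of the 10 other targets in likeness to Ccne1, and Ccne1 number 10 for Cdk1. Values of all targets in a preparation share its RNA and its reverse transcription.

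The mean erythroid marker level was low beside Cdk1 in 4 of the 6 mutant preparations, and all 6 markers were detected in every preparation. The mean level of the 6 erythroid genes Gata1, Klf1, Hbb-b1, Epor, Tfrc and Gfi1b was -6.14, -6.03 and -5.89 in Gfi1-/-;Id2+/- cells, -5.26, -6.62 and -5.16 in Gfi1-/- cells and -5.29, -5.76 and -5.66 in wild-type cells. All 3 Gfi1-/-;Id2+/- preparations and Gfi1-/- preparation 2 lay below every wild-type one. For Gfi1-/-;Id2+/- preparation 2 that rested on Hbb-b1, at -5.77, as its Gata1, Klf1, Epor, Tfrc and Gfi1b levels lay within the wild-type ranges. Among the Gfi1-/-;Id2+/- preparations, preparation 1 had the lowest marker mean and the highest Cdk1 level, -4.60. The marker mean of Gfi1-/- preparations 1 and 3 lay above every wild-type one. Single markers parted there: Gata1, Klf1, Epor and Gfi1b lay above every wild-type preparation in both. Hbb-b1 stood at -4.27 in Gfi1-/- preparation 3, below the wild-type range of -3.70 to -2.58, and at -3.57 in preparation 1, within it. Tfrc stood at -4.87 in Gfi1-/- preparation 1, below the wild-type range of -4.70 to -4.55, and at -4.27 in preparation 3, above it. Gfi1-/- preparation 2 was the lowest of the 9 for both this mean and Cdk1. Klf1, an erythroid transcription factor that switches on beta-globin, stood at -7.27 in it, against -4.77 and -4.63 in the other Gfi1-/- preparations. Gata2, a stem and progenitor factor, stood at -3.50 in it and between -4.33 and -3.60 in the other 8 preparations. The part of cell composition in the Cdk1 values was not tested.

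The gene names are those of the raw Ct table, and the authors' normalized table names the wells otherwise. Under its own names and Gapdh, 1 of 90 values lay within 0.1 of the raw Ct difference; with the columns matched to other raw names and Hbb-b1 as the reference, 90 of 90 did. Ccne1 kept its name in both, but its reference did not: the raw Hbb-b1 wells stand in the normalized column named Gapdh. From that table Ccne1 differed from wild type by 1.87 in Gfi1-/-;Id2+/- and 2.00 in Gfi1-/- cells, against 0.31 and 0.72 relative to raw Gapdh. The raw Cdk1 wells stand in the normalized column named Id2, and the normalized column named Cdk1 holds the raw Gfi1b wells. Turned to run the same way as the levels, that column differed from wild type by 1.37 in Gfi1-/-;Id2+/- and 1.73 in Gfi1-/- cells, with both the wells and the reference changed. From the column that holds the raw Cdk1 wells, where the reference alone changed, the differences were 0.90 and 0.37. Each statement here is about wells named Ccne1, Cdk1 and Gapdh in the raw Ct list.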

How the data were processed

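Raw threshold cycles (Ct) of 12 genes in 9 preparations were deposited by the authors, made by TaqMan RT-PCR per the deposited methods sheet. Also deposited were a normalized table of Ct differences, on the log2 scale per the file headers, and a fold-change table. The folds, a score here, were computed and deposited by the authors as a power of minus the Ct difference, per the methods sheet. The Ccne1 folds carry no sign: in preparation 2 of Gfi1-/-;Id2+/- and of Gfi1-/-, Ct differences of -0.7 and -0.5 stand beside 1.6 and 1.5. The control of the folds is not stated. Per the methods sheet, wells were normalized to Gapdh by the authors. The normalized table's Gfi1 column (1 column) was not used. Wells were averaged per gene and preparation and subtracted from Gapdh. The names give each mutant preparation its genotype and number. Wild-type preparations have no sample record and were placed by their names, which the sheet gives as Gfi1+/+ controls.

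Genotypes were compared with exact two-sided permutation tests over 20 assignments, and over all 3 genotypes at once, with Benjamini-Hochberg adjustment over 11 genes at 0.05. The alternative was limma 3.58.1 in R 4.3.3; Python 3.11.15, numpy 2.4.6 and pandas 2.3.3 did the rest. The tests were checked on simulated data. Nothing says that preparations came from separate mice, so p-values measure only the spread between them. The main tests and SEs treated the preparations as unpaired, and the preparation number served as a pair only in the sign-flip alternative. No label states a pairing. Deviations from the group means, over 11 genes, correlated between preparations of the same number at 0.291, 0.596 and 0.173 for Gfi1-/-;Id2+/- and wild type. The correlations were 0.634, 0.539 and 0.214 for Gfi1-/- and wild type, and 0.566, 0.114 and -0.505 between the mutants. Sample ID numbers, in the order Gfi1-/-;Id2+/-, Gfi1-/- and wild type, were 6690, 6691 and 6692 for preparation 1. They were 6713, 6701 and 6703 for preparation 2 and 6721, 6720 and 6722 for preparation 3. The members, lists and tests were chosen with earlier results of these data known. Named genes were the 2 members, the 2 targets most like each, Gapdh and Id2; others were named after their values were seen. Array values were not used, so the planned array fit was not made.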

Additional observations from a re-analysis of the deposited data

How the results depend on the processing

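None of the 120 alternative tests of Ccne1 and Cdk1 had an adjusted p under 0.05 (smallest 0.167), as neither did the main ones; a pairwise permutation test cannot reach it with 3 preparations a side. The Cdk1 difference from wild type turned to 0.94 in Gfi1-/-;Id2+/- and 0.61 in Gfi1-/- cells without a reference, to 0.88 and 0.36 with Hbb-b1 as the reference, to 0.90 and 0.37 from the authors' normalized table with columns matched to the raw Ct, and to 1.37 and 1.73 under that table's own names. By construction the last setting changes both wells and reference, and the others change the reference alone. The median difference from wild type over the targets was positive in each of these settings, from 1.28 to 1.76. Between the mutants, Ccne1 turned to 0.049 relative to the mean of the 9 other targets, and Cdk1 to -0.37 under the normalized table's own names. The cause was not tested. With 1 preparation left out, the range of the Ccne1 difference was -0.62 to -0.02 between the mutants, 0.09 to 0.69 for Gfi1-/-;Id2+/- minus wild type and 0.61 to 0.78 for Gfi1-/- minus wild type. For Cdk1 it was -0.26 to 0.56, -0.88 to -0.38 and -1.21 to -0.39; the negative value between the mutants came without Gfi1-/- preparation 2. With the preparation number as a replicate block, the differences stay as they are (-0.41 and 0.29 between the mutants, 0.31 and -0.65 for Gfi1-/-;Id2+/- minus wild type, 0.72 and -0.94 for Gfi1-/- minus wild type, Ccne1 first) and the exact sign-flip test, whose smallest p is 0.25, gave 0.25 for Cdk1 in Gfi1-/- and Gfi1-/-;Id2+/- cells against wild type, 0.25 and 0.5 for Ccne1 in the same order, and 0.5 for both genes between the mutants; the block changed no call. The array alternatives were not run.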
